A study of Mus musculus with 16 samples.

Results

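The mammary luminal epithelium genes examined here were Krt8, Krt18, Krt19, Krt7, Epcam, Elf5, Cldn3, Cldn4, Cdh1 and Foxa1, a list of 10 genes named for the cells that line the ducts and alveoli of the gland. They were taken by symbol from the 23179 genes of the table. All 10 were listed, and all 10 passed the filter on low values that left 21218 genes for testing. The tissue was mammary fat from the side opposite a tumor, profiled by RNA-Seq in 4 groups of 4 libraries. All mice were wild-type C57BL/6N females (C57BL/6NCrl in the study's methods) that entered the study at 8 weeks of age. CON-LFD mice were kept on a low-fat diet (10% of energy from fat) throughout. Mice with diet-induced obesity (DIO) ate a 60% fat diet for 15 weeks before an operation, after which DIO-HFD mice stayed on that diet, DIO-LFD mice were switched to the low-fat diet, and DIO-VSG mice received vertical sleeve gastrectomy, the removal of part of the stomach, together with the low-fat diet. Every mouse without the gastrectomy had a sham operation. E0771 mouse mammary cancer cells were injected into fat pad 4 of all mice at week 22, and fat pad 9 was taken 4 weeks later. All groups, controls included, therefore carried a tumor, and DIO-VSG differed from DIO-HFD in both operation and diet. The labels also list the tumor line as the cell line of these samples, although they give the tissue as the normal gland on the other side.

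Luminal cells form the inner layer of the mammary ductal tree and are surrounded by basal myoepithelial cells. The ductal tree is embedded in a pad of adipose tissue, so a whole-pad sample holds RNA of fat, vessel and immune cells beside that of the epithelium. Keratins 7, 8, 18 and 19 are the intermediate filaments of simple epithelia, in which a type II keratin (Krt7, Krt8) pairs with a type I keratin (Krt18, Krt19). Cdh1 (E-cadherin), Epcam and the tight-junction claudins Cldn3 and Cldn4 hold epithelial cells to one another. Elf5 is a transcription factor of luminal progenitor and alveolar cells, and Foxa1 is a pioneer factor of hormone-sensing luminal cells that acts with the estrogen receptor. In a bulk sample, fewer cells of a type and less RNA per cell cannot be told apart, so each level below is that of the whole pad.

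Each library held 46907377 to 57610899 reads assigned to the listed genes, and the members together took between 0.0648% of these reads (DIO-HFD replicate 3) and 0.266% (DIO-LFD replicate 2). Levels are given as normalized counts, which are read counts divided by the size factor of the library (0.904 to 1.22), in the order of replicates 1 to 4. The labels number the replicates but give no batch, and p-values measure the spread between these libraries. No pair of replicates was 1 library present under 2 names, since the smallest chi-square per gene between replicates was 73.2. The labelled tissue was checked with 10 adipocyte markers such as Adipoq and Plin1, which were all detected and had a summed level of 512931 to 1822458. Several libraries stood apart in markers of other cells. The summed level of 10 lymphoid markers (such as Cd3e and Ccr7) ranged from 631 to 70766 in CON-LFD and from 852 to 93645 in DIO-HFD, against 18975 to 33962 in DIO-LFD and 63951 to 80611 in DIO-VSG. The summed level of 10 keratinocyte markers was 14283 in DIO-HFD replicate 4 and lay between 1187 and 2802 in the other 15 libraries. The summed level of 8 skeletal muscle markers was 133067 in DIO-LFD replicate 4, 30522 in CON-LFD replicate 4 and 22311 in DIO-VSG replicate 2, against 465 to 4265 elsewhere. The summed level of 5 erythroid markers was 461510 in DIO-LFD replicate 1 and 18104 to 55718 in the other libraries.

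The members lie on 7 chromosomes, with 2 neighboring pairs. Positions are those of GENCODE M21 on GRCm38. Krt8 (chr15:101996698-102004482, minus strand) and Krt18 (chr15:102028180-102032027, plus strand) are 23697 bases apart, and Krt7 lies on the same chromosome (chr15:101411043-101430313, plus strand). The claudin pair Cldn4 (chr5:134945119-134946934, minus strand) and Cldn3 (chr5:134986214-134987472, plus strand) are 39279 bases apart. The others are Krt19 (chr11:100140810-100148665, minus strand), Epcam (chr17:87635979-87651129, plus strand), Cdh1 (chr8:106603351-106670246, plus strand), Elf5 (chr2:103411688-103450989, plus strand) and Foxa1 (chr12:57540628-57546916, minus strand).

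RefSeq promoter sequences (GRCm38.p6) were matched for 8 of the 10 members. The stretch before the start site is shown for Krt18, Epcam, Cldn4 and Cldn3, as the examples in which a shared short motif is present once, present in 2 copies, present once and not matched. Bases after either the RefSeq or the GENCODE start were left out. Each is written 5′ to 3′ on the strand of its gene, and capitals mark CACCTG or its reverse complement CAGGTG, the E-box that Snail and Zeb repressors of epithelial genes are known to bind. The stretches are chr15:102027966-102028179 (plus strand, 214 bases), chr17:87635729-87635978 (plus strand, 250 bases), chr5:134946935-134947184 (minus strand, 250 bases) and chr5:134985964-134986213 (plus strand, 250 bases).
Krt18: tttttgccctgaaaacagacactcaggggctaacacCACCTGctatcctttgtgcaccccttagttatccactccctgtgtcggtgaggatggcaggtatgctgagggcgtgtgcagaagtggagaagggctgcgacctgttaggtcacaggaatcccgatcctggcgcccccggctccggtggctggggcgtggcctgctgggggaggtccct
Epcam: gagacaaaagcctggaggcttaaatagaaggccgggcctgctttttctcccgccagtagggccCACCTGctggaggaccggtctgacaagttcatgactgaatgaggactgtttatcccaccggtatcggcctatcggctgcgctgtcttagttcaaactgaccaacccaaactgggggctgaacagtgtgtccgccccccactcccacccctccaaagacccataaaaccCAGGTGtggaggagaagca
Cldn4: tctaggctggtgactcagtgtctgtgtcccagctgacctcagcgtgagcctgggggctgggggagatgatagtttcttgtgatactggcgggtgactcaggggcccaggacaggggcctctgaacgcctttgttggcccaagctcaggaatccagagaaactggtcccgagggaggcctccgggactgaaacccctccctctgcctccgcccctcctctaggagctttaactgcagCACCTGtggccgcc
Cldn3: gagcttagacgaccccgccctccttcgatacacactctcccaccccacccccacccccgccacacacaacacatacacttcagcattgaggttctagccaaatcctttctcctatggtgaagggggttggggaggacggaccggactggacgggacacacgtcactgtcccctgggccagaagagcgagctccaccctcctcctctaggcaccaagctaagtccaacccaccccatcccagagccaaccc
Within the 250 bases before the RefSeq start and on both strands, CACCTG was found for 7 of the 8 matched members (Krt8, Krt18, Krt7, Epcam, Elf5, Cldn4 and Foxa1) and for 19.4% of 27025 genes with a promoter. The grainyhead core ACCGGT was found for 1 of the 8 (Epcam, in the stretch above) and 2.13% of genes, the forkhead core TGTTTA for 2 of the 8 (Epcam and Foxa1) and 13.5% of genes, and the Ets core AGGAAG for 2 of the 8 (Krt8 and Krt7) and 32.3% of genes. A match describes letters and not a bound site. The motifs were chosen after the sequences had been seen, so no test was made.

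Per kilobase of the principal transcript, the members covered a wide range of levels. Over the 16 libraries, Krt19 was highest at 10800 ± 4890 normalized counts per kb, followed by Krt18 at 9250 ± 3840 and Krt8 at 6800 ± 3890 (SD, n = 16). Epcam stood between these keratins and the rest at 2870 ± 989. The next were Cldn4 (1680 ± 656), Cldn3 (1450 ± 542), Cdh1 (1380 ± 437), Foxa1 (1290 ± 601) and Krt7 (1030 ± 407), and Elf5 was lowest at 520 ± 270. Krt19 exceeded Krt18 and Krt18 exceeded Krt8 in 15 of 16 libraries each, and Epcam lay between Krt8 and Cldn4 in 16 of 16. Among Cldn4, Cldn3, Cdh1, Foxa1 and Krt7, neighbors in this order did not differ beyond the spread, as each pair of them kept its order in 10 to 12 of 16 libraries. Krt7 exceeded Elf5 in 14 of 16. The place of Krt7 is uncertain, because the principal transcript of GENCODE extends beyond the RefSeq gene model.

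The keratins were lowest, on average, in DIO-HFD and highest in DIO-LFD. Krt8 was at 13413, 15662, 16153 and 8525 in CON-LFD, 6468, 10716, 7613 and 7827 in DIO-HFD, 8292, 36653, 12910.5 and 22743 in DIO-LFD and 7298, 9123, 14283 and 15474 in DIO-VSG. The DIO-LFD values spread most widely, and the lowest of them lay within the DIO-HFD range. Reads of the processed pseudogene Krt8-ps can be exchanged with those of Krt8, and its highest group mean was 273 ± 164 in DIO-LFD against 20149.8 ± 12544 for Krt8 (SD, n = 4). Krt18, the partner of Krt8, was at 12372, 19098, 14081 and 9067 in CON-LFD, 5269, 10686, 6534 and 7635 in DIO-HFD, 10500.1, 26110.3, 16093 and 20465 in DIO-LFD and 12201, 11443, 17519 and 13576 in DIO-VSG. All DIO-VSG libraries lay above all DIO-HFD libraries, and the lowest DIO-LFD library lay just under the highest DIO-HFD library. Krt19 was at 15238, 24450.0, 17754 and 11091 in CON-LFD, 7664, 18298, 7678 and 10026 in DIO-HFD, 13268, 38197, 16224 and 24187 in DIO-LFD and 13721, 13872, 22464 and 19323 in DIO-VSG. DIO-HFD replicate 2, the highest of its group, reached the range of the other 3 groups, while replicates 1, 3 and 4 lay below all other libraries. Krt7 was at 3271, 5826, 5012 and 2894 in CON-LFD, 1514, 3512, 2336 and 2436 in DIO-HFD, 4003, 7972, 5025 and 6582 in DIO-LFD and 3611, 4115, 4319 and 4947 in DIO-VSG. All 4 DIO-LFD and all 4 DIO-VSG libraries were above the highest DIO-HFD library, whereas 2 CON-LFD libraries were not.

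**Figure D1:**
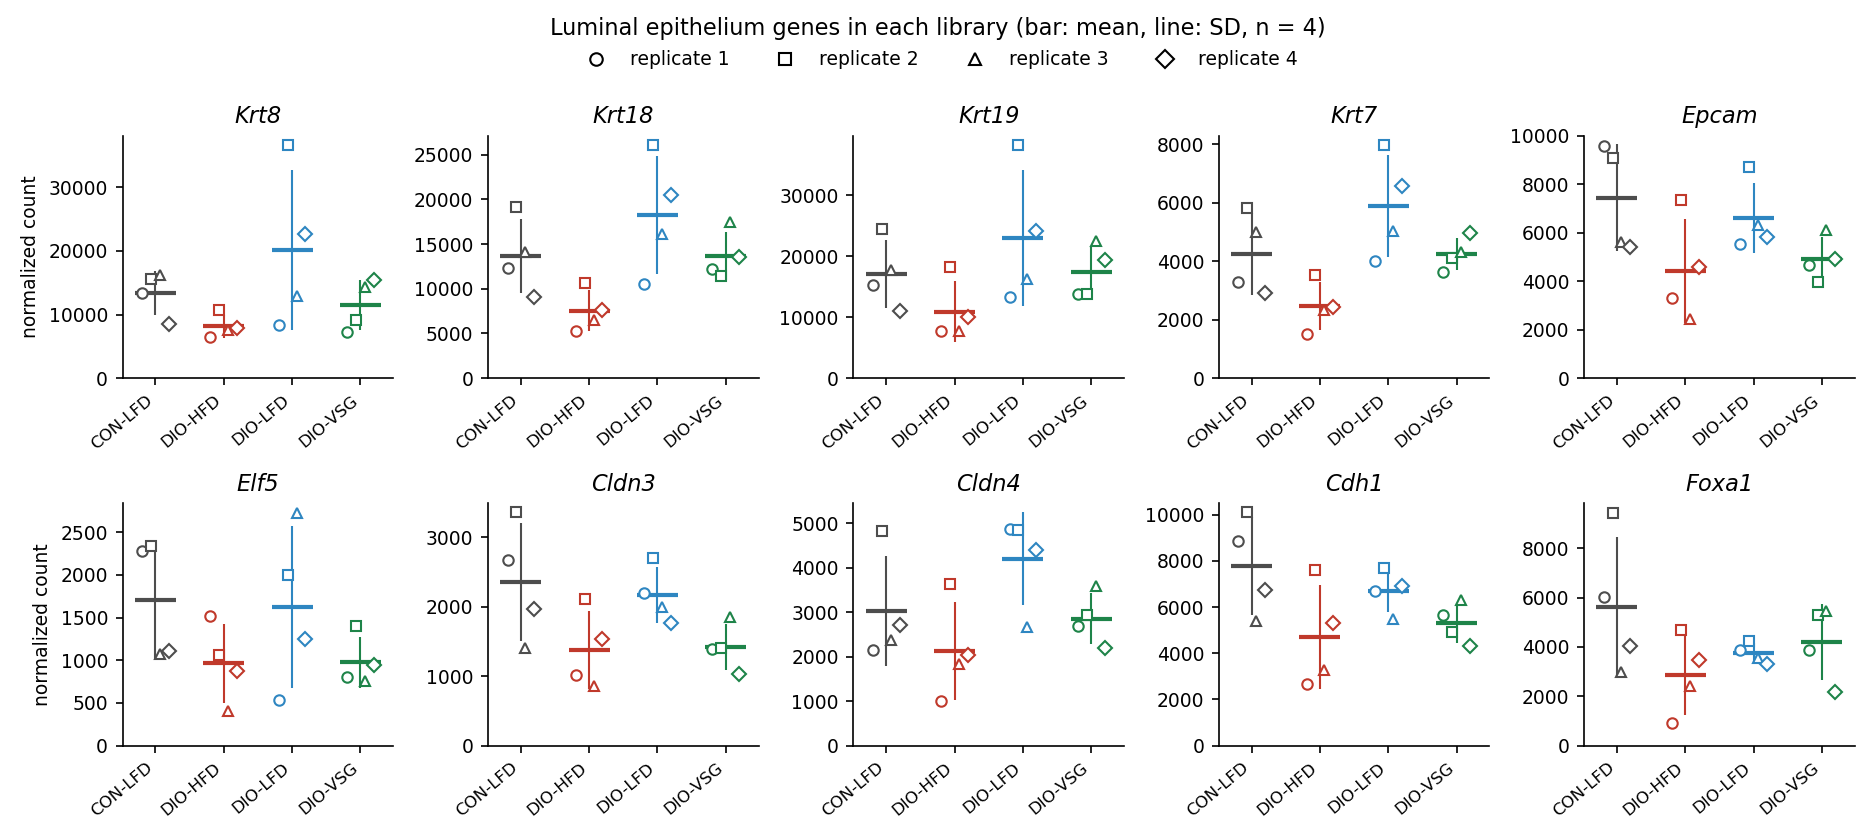
Normalized count (vertical axis, from 0, a separate scale per gene) of the 10 members in the 4 groups, where each symbol is 1 library, the horizontal bar the mean and the vertical line the SD (n = 4). DIO-HFD has the lowest mean for all 10 genes, replicate 2 is the highest DIO-HFD library for all but Elf5, and only Krt18 and Krt7 have DIO-VSG libraries that all lie above DIO-HFD.

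The adhesion genes were also lowest on average in DIO-HFD. The DIO-VSG mean was closer to DIO-HFD than to CON-LFD for Epcam, Cdh1 and Cldn3, and closer to CON-LFD for Cldn4. Epcam was at 9582, 9092, 5636 and 5423 in CON-LFD, 3316, 7359, 2442 and 4584 in DIO-HFD, 5539.9, 8730.5, 6319 and 5811 in DIO-LFD and 4671, 3980.0, 6132 and 4916 in DIO-VSG. CON-LFD held the 2 highest libraries, and DIO-VSG lay within the DIO-HFD range. Cdh1 was at 8882, 10129, 5405 and 6744 in CON-LFD, 2655, 7602, 3264 and 5332 in DIO-HFD, 6691, 7686, 5483 and 6930.3 in DIO-LFD and 5649, 4926, 6289.5 and 4326 in DIO-VSG. DIO-HFD replicates 1 and 3 were the lowest of all 16 libraries, while replicate 2 lay among the highest. Cldn3 was at 2666, 3366, 1403 and 1972 in CON-LFD, 1019.7, 2105, 857 and 1535 in DIO-HFD, 2194, 2707, 1999 and 1760.2 in DIO-LFD and 1396, 1403, 1848 and 1027 in DIO-VSG, with group means of 1379 ± 564 in DIO-HFD and 1419 ± 336 in DIO-VSG (SD, n = 4). All 4 DIO-VSG libraries lay within the DIO-HFD range. Cldn4 was at 2156, 4835, 2385 and 2714 in CON-LFD, 1009, 3638, 1830.3 and 2028 in DIO-HFD, 4862, 4857, 2662 and 4408 in DIO-LFD and 2691, 2946, 3587 and 2205 in DIO-VSG. In DIO-LFD, 3 libraries were near one another and replicate 3 was lower, inside the DIO-HFD range.

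The transcription factors had the widest fold range from the lowest to the highest library. Elf5 was at 2280.0, 2339.7, 1075 and 1111 in CON-LFD, 1518, 1056, 408 and 872 in DIO-HFD, 532, 1996, 2726 and 1245 in DIO-LFD and 799, 1400.4, 755 and 947 in DIO-VSG. Values within DIO-LFD ranged from below most DIO-HFD libraries to the highest of the series. Foxa1 was at 6037, 9411, 2983 and 4054 in CON-LFD, 903, 4671, 2400.0 and 3469 in DIO-HFD, 3888, 4248, 3536 and 3313 in DIO-LFD and 3874, 5304, 5473 and 2158 in DIO-VSG. DIO-HFD replicate 1 was the lowest and CON-LFD replicate 2 the highest, while the 4 DIO-LFD libraries were close to one another. From the lowest to the highest of the 16 libraries, Foxa1 spanned 10.4-fold and Elf5 6.68-fold, against 3.82-fold to 5.67-fold for the other 8 members.

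Obesity was addressed by comparing DIO-HFD with CON-LFD. All 10 members had a lower mean in DIO-HFD, by 0.58 (Cldn4) to 1.07 (Foxa1) on the log2 scale, but none of the 10 passed an adjusted p of 0.05 in limma, against 0.0377% of all genes. At an unadjusted p under 0.05, 6 of 10 were lower in DIO-HFD, against 7.66% of all genes tested, and none was higher, against 5.23%. These were Krt18, Krt7, Epcam, Cldn3, Cdh1 and Foxa1. The median log2 change of the members was -0.80, and that of all genes tested was 0.02. Because the list was drawn up with results of these data known, this contrast describes the list and is no independent evidence.

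For Krt18 the mean was 7531 ± 2315 in DIO-HFD and 13655 ± 4184 in CON-LFD (SD, n = 4), a log2 change of -0.86 ± 0.29 (SE) with a limma adjusted p of 0.257, the smallest of the members. Cdh1 differed by -0.81 ± 0.28 (adjusted p = 0.266, limma), with means of 4713 ± 2241 and 7789.7 ± 2117. Foxa1, with the largest change among the members, was at 2861 ± 1601 in DIO-HFD and 5621 ± 2826 in CON-LFD, and its standard error of 0.46 was also among the largest (adjusted p = 0.35, limma). Its rank was not kept under all settings. Without DIO-HFD replicate 1, Foxa1 was at -0.60 and Elf5 had the largest change at -1.14, and with library weights they were at -0.77 and -1.11. The ranges of the 2 groups overlapped for all 10 members, whereas 3% of all genes had DIO-HFD libraries that were all below CON-LFD. The count of 6 depended on single libraries. It was 3 without CON-LFD replicate 1 and 3 without DIO-HFD replicate 3. With limma's library weights, 6 members passed the adjusted p of 0.05 (Krt18, Krt7, Epcam, Elf5, Cldn3 and Cdh1), in a fit in which 4196 of 21218 genes passed.

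Weight loss by diet was addressed by comparing DIO-LFD with DIO-HFD, which uses the same DIO-HFD libraries. All 10 members had a higher mean in DIO-LFD, by 0.62 (Cdh1 and Foxa1) to 1.28 (Krt7) on the log2 scale, and none passed an adjusted p of 0.05 in limma, nor did any gene (0% called). At an unadjusted p under 0.05, 8 of 10 were higher in DIO-LFD, against 5.37% of all genes, and the other two were Elf5 and Foxa1. None was lower, against 3.16%. The groups did not overlap for 1 of 10 (Krt7), against 3.01% of all genes. The median change was 0.89 for the members and 0.01 for all genes.

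The keratins and Cldn4 had the larger differences in this comparison. Krt7 was at 5895 ± 1744 in DIO-LFD and 2449.5 ± 820.3 in DIO-HFD (SD, n = 4), a log2 change of 1.28 ± 0.28 (SE, limma adjusted p = 0.296). Krt18 differed by 1.25 ± 0.29 (adjusted p = 0.305, limma), Krt8 by 1.11 ± 0.39 (0.474), Cldn4 by 1.09 ± 0.35 (0.456) and Krt19 by 1.05 ± 0.35 (0.463). Epcam, Cldn3 and Cdh1 differed by 0.68 ± 0.30, 0.72 ± 0.30 and 0.62 ± 0.28. The count of 8 was 5 without DIO-HFD replicate 1 or replicate 3, and 4 without DIO-LFD replicate 2, the library with the highest keratin levels. With library weights, 5 members passed the adjusted p (Krt8, Krt18, Krt19, Krt7 and Cldn4), together with 1811 genes in all.

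Surgical weight loss was addressed by comparing DIO-VSG with DIO-HFD, again with the same DIO-HFD libraries. All 10 members had a higher mean in DIO-VSG, by 0.10 (Cldn3) to 0.89 (Krt18), and none passed an adjusted p of 0.05 in limma, nor did any gene (0% called). At an unadjusted p under 0.05, 2 of 10 (Krt18 and Krt7) were higher in DIO-VSG, against 5.05% of all genes, and none was lower, against 8.12%. The same members were those whose groups did not overlap, against 2.37% of all genes. Krt18 was at 13685 ± 2704 in DIO-VSG and 7531 ± 2315 in DIO-HFD (SD, n = 4), a log2 change of 0.89 ± 0.29 (SE, limma adjusted p = 0.275). Krt7 differed by 0.85 ± 0.28 (adjusted p = 0.275, limma) and Krt19 by 0.73 ± 0.35 (0.387). Epcam, Cdh1 and Cldn3 differed by 0.26 ± 0.30, 0.28 ± 0.28 and 0.10 ± 0.30, with 95% intervals that reached from -0.38, -0.33 and -0.54 to 0.89, 0.88 and 0.74. Each interval therefore held both a lower level and a difference as large as the 0.73 of Krt19. Without DIO-HFD replicate 2 the count was 6 in place of 2. With library weights, Krt18, Krt19 and Krt7 passed the adjusted p, together with 3739 genes in all, and the change of Cldn3 was -0.12. The direction was not kept for Elf5 (0.12 with all libraries), which was at -0.10 with the lymphoid score as a covariate, -0.24 without DIO-HFD replicate 3 and -0.07 without DIO-VSG replicate 2. Cldn3 was at -0.02 when replicate 1 of DIO-HFD was left out, at -0.10 when its replicate 3 was, and at -0.04 when replicate 3 of DIO-VSG was. The lowest values with a library left out were 0.01 for Epcam (DIO-HFD replicate 3) and 0.04 for Cdh1 (DIO-HFD replicate 1). The median of the members was 0.50 with all libraries and 0.30 to 0.73 with a library left out, lowest without DIO-HFD replicate 1.

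**Figure D2:**
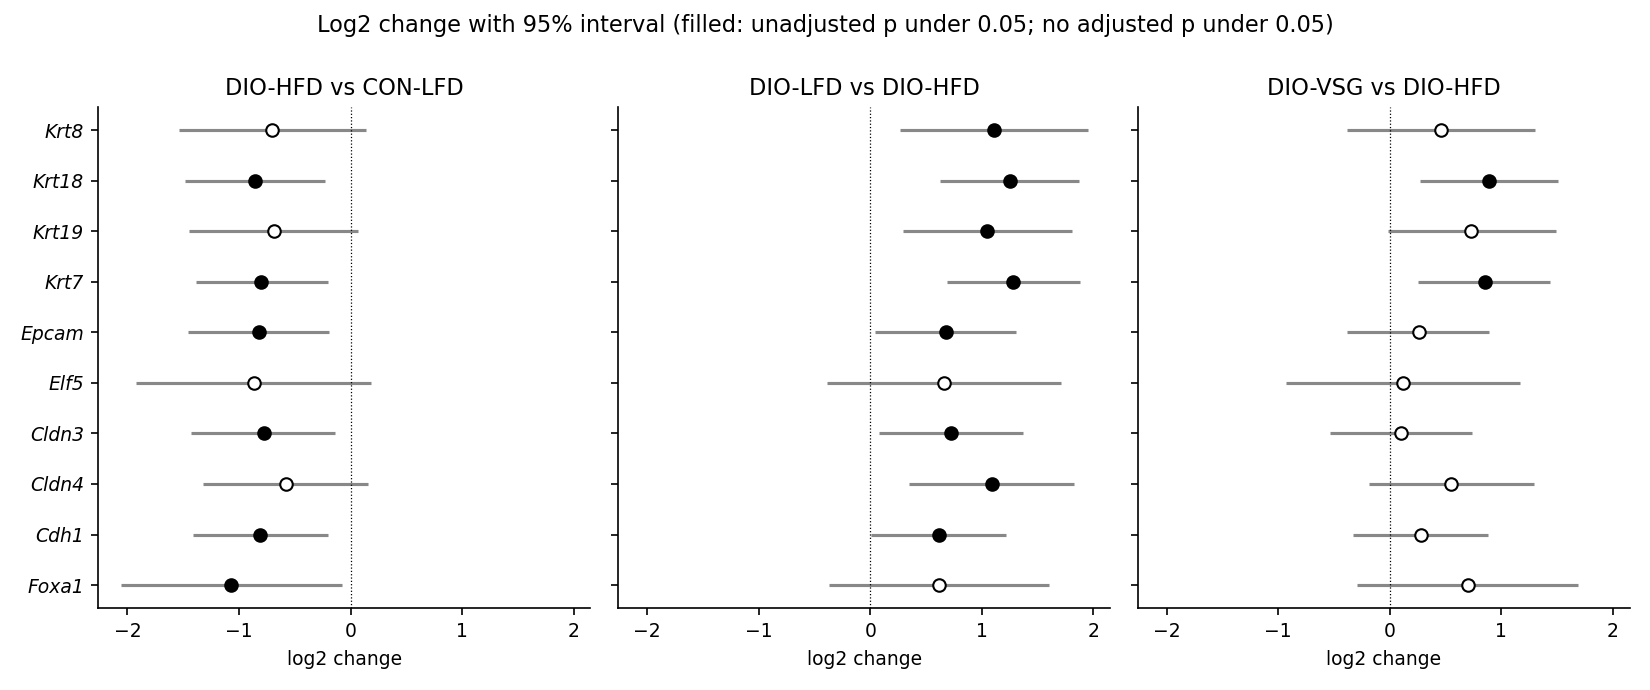
Log2 change (horizontal axis, limma) of each member with its 95% interval for DIO-HFD against CON-LFD, DIO-LFD against DIO-HFD and DIO-VSG against DIO-HFD, where filled points have an unadjusted p under 0.05 and the 3 comparisons share the DIO-HFD libraries. Changes lie between -1.07 and -0.58 in the first, 0.62 and 1.28 in the second, and 0.10 and 0.89 in the last, and no member passes an adjusted p of 0.05.

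The other comparisons do not involve DIO-HFD. DIO-VSG was below DIO-LFD in the mean log2 level of 9 of 10 members, with changes from -0.65 (Krt8) to 0.08 (Foxa1), a median of -0.42 (-0.27 without DIO-LFD replicate 2) and adjusted p from 0.51 to 0.942 in limma (0% of all genes called). None reached an unadjusted p under 0.05, against 5.41% of genes lower and 4.3% higher in DIO-VSG. In a fit of the 2 groups alone, 4 members were lower in DIO-VSG at that level and 1533 genes passed the adjusted p, and with library weights the counts were 3 and 184, with no member past the adjusted p in either. The shares of all genes at the unadjusted level in these fits are not given, so the 4 and 3 members cannot be set against the 5.41%. Without DIO-LFD replicate 1, 3 members were lower in DIO-VSG at that level, and 1 was when any of these was left out: replicate 2 or 3 of CON-LFD, replicate 2 or 3 of DIO-HFD, DIO-LFD replicate 4 and DIO-VSG replicate 3. Relative to CON-LFD, 7 members were below 0 and 3 above in DIO-VSG, with a median log2 change of -0.31. The change was near 0 for Krt18, Krt19, Krt7 and Cldn4 (-0.03 to 0.05) and was lowest for Elf5 at -0.75 ± 0.49 (SE), and Epcam and Cdh1 were at -0.56 and -0.53. Cldn3 was the 1 member at an unadjusted p under 0.05 (log2 change -0.68 ± 0.30, limma adjusted p = 0.27, with 0% of all genes called), against 7.55% of genes lower and 10.2% higher in DIO-VSG. That count was 0 without CON-LFD replicate 1, CON-LFD replicate 2, DIO-VSG replicate 1, DIO-VSG replicate 2 or DIO-VSG replicate 4, 2 without CON-LFD replicate 3, CON-LFD replicate 4 or DIO-HFD replicate 3, and 3 without DIO-HFD replicate 2. With library weights, Epcam, Cldn3 and Cdh1 passed the adjusted p in DIO-VSG against CON-LFD, together with 4226 genes in all. Between DIO-LFD and CON-LFD, 5 members were above and 5 below 0, from -0.46 (Foxa1) to 0.51 (Cldn4), and none reached an unadjusted p under 0.05, against 3.23% of genes higher and 3.03% lower in DIO-LFD. By the adjusted p in limma, no member and 0.00471% of all genes were called. Without CON-LFD replicate 2 or without DIO-LFD replicate 1, 2 members were higher in DIO-LFD at that level.

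The members varied together across libraries in blocks. Pearson's r of log2 levels over the 16 libraries lay between 0.08 and 0.96 over the 45 pairs, with a median of 0.65, as a description of libraries that share groups. The 4 keratins formed a block, at 0.86 to 0.96. Epcam, Cldn3 and Cdh1 formed another, at 0.90 to 0.93, and r between a keratin and one of these 3 genes was 0.48 to 0.76. Foxa1 was closest to Cdh1 (0.87), and Elf5 had an r of 0.08 to 0.62 with the 9 others. With group means removed, r was 0.82 to 0.95 among the keratins, 0.83 to 0.90 among Epcam, Cldn3 and Cdh1, and 0.21 to 0.77 between them. Foxa1 then had an r of 0.87 with Cdh1 and 0.82 with Cldn3, Cldn4 had 0.83 with Cdh1, and Cldn4 and Foxa1 had 0.82 with each other. These blocks were picked after the values were seen.

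**Figure D3:**
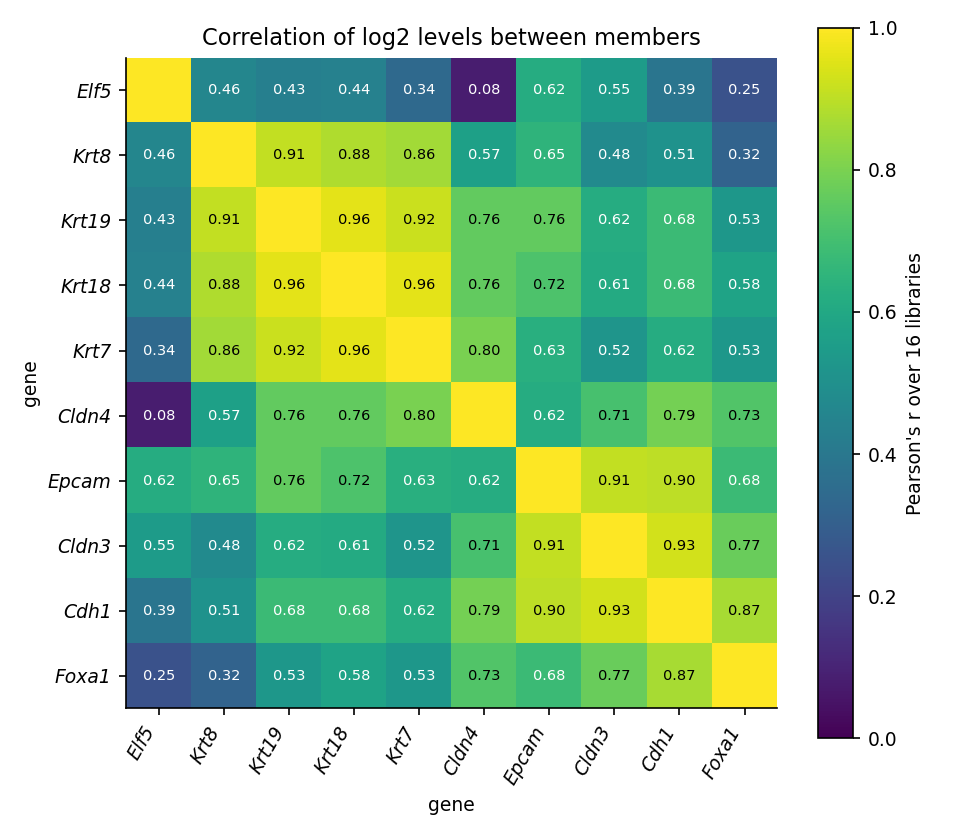
Pearson's r between the log2 levels of each pair of members over 16 libraries, with genes on both axes and color from 0 to 1. The keratins (0.86 to 0.96) and the set of Epcam, Cldn3 and Cdh1 (0.90 to 0.93) stand out, and Elf5 has the lowest values, down to 0.08 with Cldn4.

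Differences between members within the same library were also compared. The mean log2 level of the 4 keratins exceeded that of Epcam, Cldn3 and Cdh1 by 1.07 ± 0.51 in CON-LFD, 1.11 ± 0.29 in DIO-HFD, 1.61 ± 0.52 in DIO-LFD and 1.63 ± 0.33 in DIO-VSG (SD, n = 4). The groups overlapped, and the grouping was chosen after the values were seen, so it was not tested. Krt8 and Krt18, which encode filament partners, differed by -0.74 to 0.49 in log2 level within a library. The claudins were less even, as Cldn3 minus Cldn4 had a mean of -0.36 ± 0.46 in CON-LFD, -0.57 ± 0.48 in DIO-HFD, -0.93 ± 0.40 in DIO-LFD and -1.02 ± 0.08 in DIO-VSG.

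Elf5 and Foxa1 mark different luminal cells, and their difference within a library was compared between groups. Elf5 minus Foxa1 was -1.69 ± 0.29 in CON-LFD, -1.48 ± 1.51 in DIO-HFD, -1.44 ± 1.05 in DIO-LFD and -2.06 ± 0.70 in DIO-VSG (log2, SD, n = 4). In two-sided exact permutation tests, p was 0.371 to 0.971 over the 6 comparisons and 0.971 in each after adjustment, where the smallest p this design allows is 0.0286. The largest difference of means was -0.62, for DIO-VSG minus DIO-LFD, and it was -1.10 without DIO-LFD replicate 1, -0.36 without DIO-VSG replicate 3 and -0.27 without DIO-LFD replicate 3. DIO-HFD replicate 1 was the 1 library with Elf5 above Foxa1, by 0.75. Without it the difference of DIO-HFD from CON-LFD changed from 0.20 to -0.54.

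**Figure D4:**
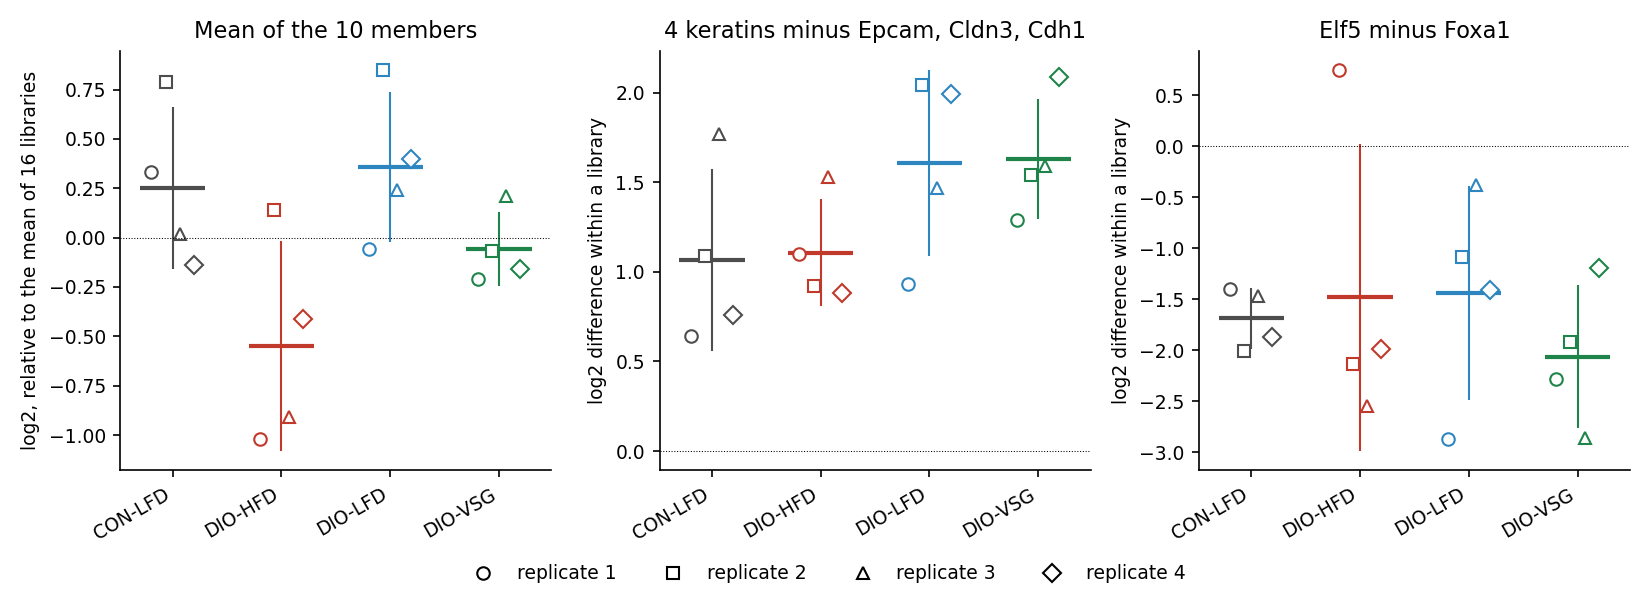
Log2 quantities per library in the 4 groups, with the mean over the 10 members relative to all 16 libraries (left), the keratins minus Epcam, Cldn3 and Cdh1 (middle) and Elf5 minus Foxa1 (right), where symbols are libraries, bars the mean and lines the SD (n = 4). The members' mean is lowest in DIO-HFD replicates 1 (-1.02) and 3 (-0.91), and Elf5 minus Foxa1 is 0.75 in DIO-HFD replicate 1 and below 0 elsewhere.

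The mean over the members relative to the 16 libraries (the members' score) was 0.25 ± 0.41 in CON-LFD, -0.55 ± 0.53 in DIO-HFD, 0.36 ± 0.38 in DIO-LFD and -0.06 ± 0.19 in DIO-VSG (log2, SD, n = 4). The gene outside the list whose log2 level was most like this score was Esrp2, a splicing factor of epithelial cells, with an r of 0.973 over 16 libraries. It was followed by Epb41l4b (0.955), the tight-junction gene Cgn (0.943), the epithelial protease inhibitor Spint1 (0.94) and Cnksr1 (0.94). Serinc2, Kcnk1, Dlg3, Ccbl1 and Arhgef16 had r from 0.933 to 0.938.

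Other epithelial genes were described by lists. In an epithelial list of 40 genes that held no member, 15 were lower and 0 higher in DIO-HFD than in CON-LFD at an unadjusted p under 0.05, against 7.66% lower and 5.23% higher of all genes, with a median log2 change of -0.57. Against DIO-HFD, 9 of the 40 were higher and 0 lower in DIO-LFD (5.37% and 3.16% of all genes, median 0.46), and in DIO-VSG 5 were higher and 1 was lower (shares over all genes 5.05% and 8.12%, median 0.15). Against CON-LFD, 13 were lower and 0 higher in DIO-VSG (7.55% and 10.2% of all genes, median -0.47), and 1 was lower and 0 higher in DIO-LFD (3.03% and 3.23% of all genes, median -0.13). In DIO-VSG, 3 were lower and 0 higher than in DIO-LFD (5.41% and 4.3% of all genes, median -0.36). None of the 40 passed an adjusted p of 0.05 in limma in any of the 6 comparisons. Without CON-LFD replicate 3, 5 genes of this list and the 4 described next passed it in DIO-VSG against CON-LFD, in a fit in which 873 of 21218 genes passed. By the smallest p, Gata3, a luminal transcription factor, was at 4059 ± 1500.3 in DIO-HFD and 6954 ± 1686 in CON-LFD (log2 change -0.81 ± 0.22, limma adjusted p = 0.215). Wfdc2, a secreted epithelial protein, was 1.46 ± 0.54 higher (log2, SE) in DIO-VSG than in DIO-HFD (adjusted p = 0.312, limma), and Jup, a junction protein, was -0.86 ± 0.25 (0.259). In DIO-VSG against CON-LFD, Krt23 and Sox9 were at -1.71 ± 0.53 and -0.90 ± 0.31 (limma adjusted p = 0.268 for both). Against DIO-LFD, Sox10 and Muc1 in DIO-VSG were at -0.96 ± 0.39 and -1.08 ± 0.45 (limma adjusted p = 0.509 for both).

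The hormone-sensing list (10 genes) had 2 lower in DIO-HFD than in CON-LFD at an unadjusted p under 0.05, and 2 higher in both DIO-LFD and DIO-VSG than in DIO-HFD, where the shares of all genes were 7.66%, 5.37% and 5.05%. These were Prlr, the prolactin receptor, and Prom1 in each case. Prlr was at 12854 ± 4833 in DIO-HFD, 25214 ± 11170.2 in CON-LFD, 37103 ± 16018 in DIO-LFD and 29007 ± 4231 in DIO-VSG (SD, n = 4). Its log2 change from DIO-HFD was 1.52 ± 0.36 in DIO-LFD (limma adjusted p = 0.317) and 1.25 ± 0.36 in DIO-VSG (0.259). The luminal progenitor and alveolar list (10 genes) was less even. Against DIO-HFD, 2 were lower and 0 higher in DIO-VSG (8.12% and 5.05% of all genes, median log2 change -0.38, where that of the members was 0.50), namely Mfge8 (-0.75 ± 0.20, limma adjusted p = 0.246) and Kit (-0.44 ± 0.19, 0.362). It also had 4 lower and 0 higher in DIO-VSG than in DIO-LFD (5.41% of all genes lower), and 4 lower and 0 higher than in CON-LFD (7.55% lower), among them Kit, a receptor of luminal progenitors (log2 change -0.81 ± 0.19, limma adjusted p = 0.268). Trf, the transferrin gene, was the 1 gene of the 10 at an unadjusted p under 0.05 in DIO-LFD, higher by 1.15 ± 0.34 than in DIO-HFD (limma adjusted p = 0.435) and by 0.86 ± 0.34 than in CON-LFD (0.707), with 5.37% and 3.23% of all genes higher. Its mean in DIO-LFD was 115426 ± 45533 (SD). The summed level of this list was highest in DIO-LFD replicate 1 (254024), the library with the highest adipocyte sum (1822458). Which cells Trf came from was not tested. Of the 10, 1 was higher and 0 lower in DIO-HFD than in CON-LFD (5.23% of all genes higher), which was Mfge8 (0.56 ± 0.20, adjusted p = 0.279, limma), a milk fat globule protein that macrophages and other stromal cells also make. The list's median log2 change there was -0.33, with 8 of the 10 below 0 and 2 above.

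Of 10 milk genes, 7 were listed and 6 were tested. Against DIO-HFD, 1 was higher and 0 lower in DIO-LFD at an unadjusted p under 0.05, the casein gene Csn3 (log2 change 1.19 ± 0.52, limma adjusted p = 0.552), with 5.37% of all genes higher. Xdh, a gene of milk fat secretion that other tissues also use, was lower in DIO-VSG than in DIO-LFD (-0.60 ± 0.26, limma adjusted p = 0.509) and than in CON-LFD (-0.65 ± 0.26, 0.268), with 5.41% and 7.55% of all genes lower. Glycam1, which is also made by the vessels of lymph nodes, was higher in DIO-VSG than in CON-LFD (5.01 ± 2.14, limma adjusted p = 0.268), at 20592 ± 3949 against 7616 ± 11043 (SD), with 10.2% of all genes higher. Of 10 other epithelial keratins, 8 were listed and tested. In DIO-VSG, Krt80 was lower than in DIO-HFD (-1.04 ± 0.37, adjusted p = 0.306, limma) and than in DIO-LFD (-0.99 ± 0.37, 0.509), and Krt14 of basal cells was lower than in CON-LFD (-1.03 ± 0.42, adjusted p = 0.268, limma). Krt20 was higher in DIO-LFD than in CON-LFD (1.02 ± 0.46, adjusted p = 0.787, limma), at 44.1 ± 27.1 against 19.8 ± 10.3 normalized counts (SD). Of the 8, 5 were below 0 and 3 above in that comparison, with a median log2 change of -0.32. Each named keratin was the 1 gene of 8 at an unadjusted p under 0.05 in its comparison, where 8.12%, 5.41% and 7.55% of all genes were lower and 3.23% higher, in that order, and the list had 0 in the other two comparisons. None of the genes of these 4 lists passed an adjusted p of 0.05 in limma with all libraries and no weights. Under library weights, related-list genes past it (the epithelial list included) numbered 18 in DIO-HFD against CON-LFD, 24 in DIO-VSG against DIO-HFD and 13 in DIO-LFD against DIO-HFD. They numbered 1 in DIO-VSG against DIO-LFD and 25 in DIO-VSG against CON-LFD. In those fits 4196, 3739, 1811, 184 and 4226 genes passed, in that order.

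Markers of other cells were set beside the members' score. Over 16 libraries its r was 0.40 with the score of 9 basal and myoepithelial markers, which were all detected and summed to 41558 to 74085 in CON-LFD, 48986 to 70449 in DIO-HFD, 24712 to 65629 in DIO-LFD and 28536 to 45536 in DIO-VSG. That list also holds Acta2, Mylk, Myh11 and Cnn1, so a sum can be high where Krt14 and Trp63 are low. In DIO-HFD replicate 3 the sum was 66940, while Krt14 (1080.5) and Trp63 (529.3) were the lowest of the 16 libraries. With the keratinocyte, lymphoid, adipocyte and macrophage scores, the r of the members' score was -0.11, -0.11, 0.30 and -0.49. The 10 macrophage markers were all detected and summed to 14028 to 120919 in CON-LFD, 45010 to 67641 in DIO-HFD, 41987 to 61198 in DIO-LFD and 29724 to 65173 in DIO-VSG. Their score was 0.40 ± 0.11 in DIO-HFD, -0.17 ± 1.14 in CON-LFD, 0.13 ± 0.31 in DIO-LFD and -0.37 ± 0.73 in DIO-VSG (log2, SD, n = 4). It was highest on average in DIO-HFD, where the members' score was lowest, and a link was not tested. The lymphoid sum was 93645 in DIO-HFD replicate 1 and 852 in DIO-HFD replicate 3, the highest and lowest of that group, and these libraries had the 2 lowest members' scores of the series (-1.02 and -0.91). DIO-HFD replicate 1 also had the lowest adipocyte sum, 512931. With the lymphoid score as a covariate, the median change of the members was -0.75 for DIO-HFD against CON-LFD, 0.95 for DIO-LFD against DIO-HFD and 0.62 for DIO-VSG against DIO-HFD. The part of lymphoid and adipose tissue in the members' levels was not tested beyond this. DIO-HFD replicate 4 held Krt1 at 2259, Krt10 at 5443 and Flg at 1194, keratinocyte genes of which Flg was at 0 in all CON-LFD and DIO-VSG libraries, as was Krt2. Without this library the members' median was -0.87 for DIO-HFD against CON-LFD, 0.92 for DIO-LFD against DIO-HFD and 0.51 for DIO-VSG against DIO-HFD. Without DIO-HFD replicate 1 these medians were -0.60, 0.85 and 0.30, and without DIO-HFD replicate 3 they were -0.63, 0.76 and 0.48.

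With the fibroblast, endothelial and erythroid scores, r was -0.08, -0.10 and -0.04, and with that of the 8 skeletal muscle markers, which were all detected, it was 0.26. The skeletal muscle score was -1.80 ± 0.42 in DIO-HFD, 0.71 ± 2.28 in CON-LFD, 0.63 ± 3.59 in DIO-LFD and 0.46 ± 2.23 in DIO-VSG (log2, SD, n = 4), lowest on average in DIO-HFD as the members' score was. Without the libraries highest in these markers, the members' median was -0.93 for DIO-HFD against CON-LFD (without CON-LFD replicate 4), 0.90 for DIO-LFD against DIO-HFD (without DIO-LFD replicate 4) and 0.54 for DIO-VSG against DIO-HFD (without DIO-VSG replicate 2). Without DIO-LFD replicate 1, the highest in erythroid markers, it was 1.06 for DIO-LFD against DIO-HFD.

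**Figure D5:**
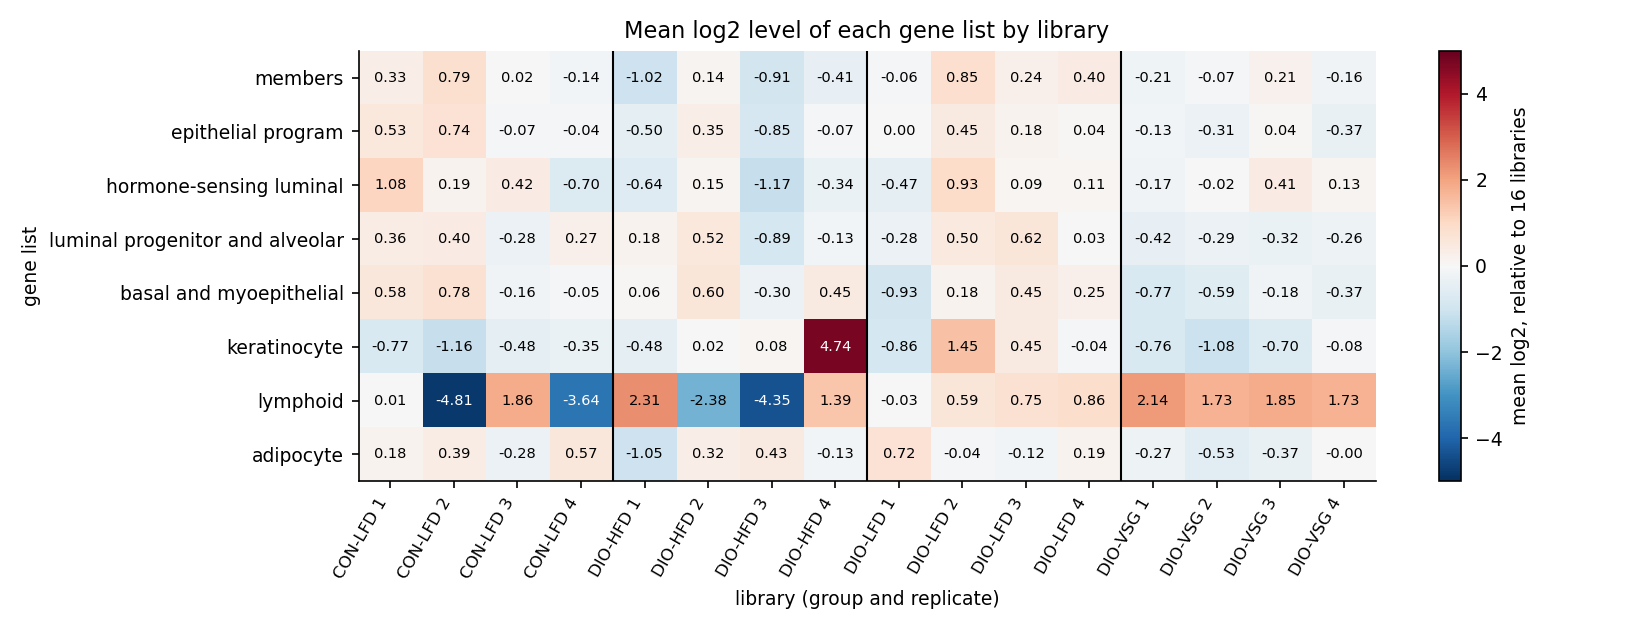
Mean log2 level of 8 gene lists (rows) relative to the mean of 16 libraries in each library (columns, group and replicate), with color from -5 to 5. The members' row is lowest at -1.02 and -0.91 in DIO-HFD replicates 1 and 3, where the lymphoid row reads 2.31 and -4.35, and the keratinocyte row is 4.74 in DIO-HFD replicate 4.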

How the data were processed

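Total RNA of 16 mammary fat samples was sequenced, with group and replicate read from each sample title. Per the study's methods, the authors made stranded libraries, aligned reads to GRCm38 with STAR, estimated counts with salmon on a Gencode annotation whose release is not given in the sources used here, removed genes under 10 counts and normalized with DESeq2. The submitters' processing notes name TopHat2 2.0.7 and HTSeq 0.5.3p9 instead, and which set made the table could not be settled. The deposited values are log2 values, made by the authors with a variance-stabilizing transformation (lowest 5.36, highest 21.85). The design had assumed normalized counts, so the transformation was inverted, which gave whole reads (within 0.01 read) for 100.0% of values.

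A gene was tested if 4 or more libraries reached 10 normalized counts. All 16 libraries entered a single limma-trend model (R 4.3.3, limma 3.58.1) of log2(normalized count + 1) with a term for group and no other. Log2 changes are on that scale, which understates changes of low genes. Tests were two-sided, with Benjamini-Hochberg adjustment over all genes within a comparison and a threshold of 0.05. The fit was tested on simulated data. Gene positions and lengths came from GENCODE M21, in which 95.7% of symbols were found once. No value column was left without a sample.

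All members are described. From each related list, genes past the adjusted threshold were to be named, and otherwise the 2 with the smallest p in a comparison. Only part of the latter are named above. The 10 genes most like the members' score were ranked by Pearson's r, leaving out predicted genes. The members and lists were chosen with earlier results of these data known. Alternatives were other pseudocounts, no filter, the deposited values, quantile normalization, 2 groups alone, a replicate block, library weights, lymphoid or keratinocyte covariates, limma-voom on recovered reads (chosen after seeing the data) and leaving out each library.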

Additional observations from a re-analysis of the deposited data

Results flagged for a closer look

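In 2 of 60 groups of 4 libraries examined, 1 library lay farther from its group than Dixon's 95% critical value allows, and chance alone gives about 1 in 20 such groups. The log2 level of Cldn4 in DIO-LFD replicate 3 was 11.38, against 12.11 to 12.25 in the other DIO-LFD libraries (gap over range 0.837). Elf5 minus Foxa1 in DIO-HFD replicate 1 was 0.75, against -2.55 to -1.99 in the other DIO-HFD libraries (gap over range 0.83).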

How the results depend on the processing

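Of 60 member changes, 50 kept their direction under every setting run, and of the 30 in the comparisons with DIO-HFD, 28 did. The planned edgeR and DESeq2 tests were not run, and limma-voom on the recovered reads was run in their place. The same number did not pair libraries (9 of 24 same-number pairs had a correlation over 0.1, range -0.609 to 0.534, and 1 of 16 libraries was closest to its own number in every other group). The cause of the shifts below was not tested.

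In the order DIO-HFD against CON-LFD, DIO-VSG against DIO-HFD, DIO-LFD against DIO-HFD, DIO-VSG against DIO-LFD, DIO-VSG against CON-LFD and DIO-LFD against CON-LFD, genes past the adjusted p numbered 8, 0, 0, 0, 0 and 1. Library weights gave 4196, 3739, 1811, 184, 4226 and 53. Members past it under library weights numbered 6, 3, 5, 0, 3 and 0, and genes of the related lists 18, 24, 13, 1, 25 and 0, where both were 0 before. For DIO-HFD against CON-LFD, quantile normalization gave 3 genes, the 2 groups alone 0, the replicate block 1, the lymphoid covariate 18 and limma-voom 0. For DIO-VSG against DIO-LFD, the 2 groups alone gave 1533 genes, 3 of them in the related lists. For DIO-VSG against CON-LFD, the deposited log2 values gave 1 gene and the 2 groups alone 2. For DIO-LFD against CON-LFD, a pseudocount of 5, the deposited log2 values and the keratinocyte covariate gave 2 genes each, the lymphoid covariate 7, and the 2 groups alone, the replicate block and limma-voom 0.

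At an unadjusted p under 0.05, members higher in DIO-VSG than in DIO-HFD numbered 4 under library weights and 4 with the lymphoid covariate, in place of 2. Members lower in DIO-VSG than in DIO-LFD numbered 4 in the 2 groups alone, 1 with the replicate block and 3 under library weights, in place of 0. Members lower in DIO-VSG than in CON-LFD numbered 4 in the 2 groups alone, 4 under library weights and 0 with the lymphoid covariate, in place of 1. Members higher in DIO-LFD than in CON-LFD numbered 1 with the replicate block, 2 under library weights and 1 with the lymphoid covariate, in place of 0. The replicate block changed no other count by more than 1.5 times. The shares of all genes at the unadjusted level are not given for these settings or for the fits with a library left out. These member counts therefore cannot be set against the shares given above.

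The log2 change reversed under library weights for Cldn3 in DIO-VSG against DIO-HFD (-0.12) and Cldn4 in DIO-VSG against CON-LFD (0.16). With the lymphoid covariate it reversed for Elf5 in DIO-VSG against DIO-HFD (-0.10), for Cldn4 (0.45) and Foxa1 (0.17) in DIO-VSG against CON-LFD, and for Cldn3 in DIO-LFD against CON-LFD (0.05).

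Leaving out each library in turn, genes past the adjusted p ranged from 0 to 128 for DIO-HFD against CON-LFD (128 without CON-LFD replicate 3), 0 to 1 for DIO-VSG against DIO-HFD (1 without DIO-VSG replicate 2), 0 to 1 for DIO-LFD against DIO-HFD (1 without DIO-LFD replicate 1), 0 to 873 for DIO-VSG against CON-LFD (873 without CON-LFD replicate 3) and 0 to 6 for DIO-LFD against CON-LFD (6 without CON-LFD replicate 2). Members past it were 0 throughout, and related-list genes in DIO-VSG against CON-LFD ranged from 0 to 5. Members at an unadjusted p under 0.05 ranged from 3 to 8 (DIO-HFD against CON-LFD), 2 to 6 (DIO-VSG against DIO-HFD), 4 to 8 (DIO-LFD against DIO-HFD), 0 to 3 (DIO-VSG against DIO-LFD), 0 to 3 (DIO-VSG against CON-LFD) and 0 to 2 (DIO-LFD against CON-LFD). Log2 changes that crossed 0 were those of Cldn3 (-0.10 to 0.33) and Elf5 (-0.24 to 0.39) in DIO-VSG against DIO-HFD, Foxa1 in DIO-VSG against DIO-LFD (-0.08 to 0.37), Krt7 (-0.11 to 0.22), Krt18 (-0.15 to 0.21), Krt19 (-0.15 to 0.23) and Cldn4 (-0.16 to 0.22) in DIO-VSG against CON-LFD, and Cldn3 (-0.29 to 0.14) and Elf5 (-0.53 to 0.25) in DIO-LFD against CON-LFD. Elf5 minus Foxa1 ranged from -0.54 to 0.56 (DIO-HFD against CON-LFD), -0.93 to 0.17 (DIO-VSG against DIO-HFD, 0.17 without DIO-HFD replicate 1), -0.31 to 0.79 (DIO-LFD against DIO-HFD) -0.10 to 0.73 (DIO-LFD against CON-LFD, -0.10 without DIO-LFD replicate 3), -1.10 to -0.27 (DIO-VSG against DIO-LFD) and -0.66 to -0.11 (DIO-VSG against CON-LFD). The members' median crossed 0 for DIO-LFD against CON-LFD (-0.07 to 0.34, -0.07 without DIO-LFD replicate 2) and was -0.47 to -0.12 for DIO-VSG against CON-LFD. Counting error is small at these depths beside the spread between libraries.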
